A study of Mus musculus with 7 samples.

Results

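The genes described here are 9 markers of B cells and of the plasma cells that arise from them, measured in RNA from 7 mouse melanoma tumours. They were chosen by symbol from the deposited expression table, which holds 28233 genes, and all 9 were found there. The immunoglobulin genes themselves were not among the 9. The tumours were subcutaneous grafts of B16mhgp100, a line derived from the B16 mouse melanoma, in C57BL/6 mice. The comparison was between 4 tumours with Cr1l over-expression (Cr1l 1, Cr1l 2, Cr1l 3 and Cr1l 4) and 3 tumours with the vector (Vec 5, Vec 6 and Vec 7). Cr1l encodes Crry, a membrane protein that limits complement activation in mice. Every host was given anti-PD1, which blocks a brake on T cells, starting on day 10 after inoculation, in 4 doses of 200 µg at 2 per week, and tumours were collected 1 day after dosing ended. No tumour without anti-PD1 is analysed here, so the comparison asks how tumours with and without extra Cr1l differed under this treatment. The labels name neither the promoter behind the over-expression nor whether each line was a single clone, and they give no sex or age of the mice.

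B cells recognise antigen through a membrane immunoglobulin that is paired with the signalling chains Cd79a and Cd79b. Pax5 holds the B cell programme, while Pou2af1 joins Oct factors on immunoglobulin promoters and is used by B cells and plasma cells alike. When a B cell becomes a plasma cell, surface proteins such as Ms4a1 (CD20) and Cd22 and the factor Pax5 are lost, and proteins of the endoplasmic reticulum that fold and clear secreted immunoglobulin, among them Mzb1 and Derl3, become abundant. In melanoma grafts such cells come from the host, as do T cells and macrophages.

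Values are TPM, a unit of transcript share that is scaled to gene length and to the total of each tumour. Because TPM does not carry the number of reads, depth is unknown and counting error could not be computed. In whole tumours, fewer cells of a type and less RNA per cell cannot be told apart. Cr1l itself was at 76.37, 78.56, 77.91 and 83.57 TPM in Cr1l 1 to Cr1l 4, against 52.41, 46.29 and 54.94 TPM in Vec 5 to Vec 7 (limma adjusted p = 0.119), so the groups did not overlap and each tumour stood on the side of its label. Melanocyte genes were abundant in every tumour, with the 7 listed markers summing to 8872 to 19765 TPM in Cr1l tumours and 12899 to 20010 TPM in Vec tumours. Leukocyte content was uneven: Ptprc (CD45), which all leukocytes carry, was at 13.72, 14.93, 132.88 and 83.57 TPM in Cr1l 1 to Cr1l 4, against 21.97, 12.25 and 6.44 TPM in Vec 5 to Vec 7. Cr1l 3 and Cr1l 4 therefore stood apart from the other 5 tumours in CD45. The log2 differences of some of the genes described here are also given without Cr1l 3 or without both. Those of genes read from lists, and the list medians, are given only with both. The 5 red cell markers summed to 106 to 389 TPM in Cr1l tumours and 416 to 41285 TPM in Vec tumours, and globin genes took 4.14% of the TPM of Vec 6 and 0.973% of that of Vec 7.

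All 9 genes had a higher mean in Cr1l than in Vec tumours, and for 4 of them (Ms4a1, Cd22, Pou2af1 and Mzb1) every Cr1l tumour lay above every Vec tumour. That is 44.4% of the 9, against 6.69% of the 28233 genes of the table and 9.29% of the 14954 that averaged at least 1 TPM. The 9 genes, and the lists used further on, were chosen with earlier results of these data known. Such shares are therefore a description of the 9 and no test of them. None of the 9 passed an adjusted p of 0.05 in limma (moderated test on log2(TPM + 1), Benjamini-Hochberg adjustment over all genes), where 0.0134% of 14954 genes tested were called, that is 2 genes. Only Cd79b, Cd22, Mzb1 and Derl3 averaged at least 1 TPM and entered that fit, and with no filter on low values limma again called 0 of the 9 and 0% of all genes. At an unadjusted p under 0.05, limma had 2 of the 4 tested genes, Cd22 and Mzb1, both higher in Cr1l tumours. Of all genes tested, 9.49% were past that mark in the same direction. Cd22 and Mzb1 averaged 0.66 and 0.393 TPM in Vec tumours, so they passed the filter only through their values in Cr1l tumours. The 2 of 4 is therefore favoured by the filter and is no support for a difference. Without the filter 4 of the 9 were past an unadjusted p of 0.05, where 3099 of all genes, or 10.98%, were past it in either direction. With the filter 2327 genes, or 15.6%, were past it in either direction. In the authors' deposited table, made with DESeq2 on read counts, the 4 genes with no overlap were the ones with an adjusted p under 0.05 and a positive fold change. Again that is 44.4%, against 4.74% of the 18297 genes with an adjusted p in the authors' deposited table.

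**Figure D1:**
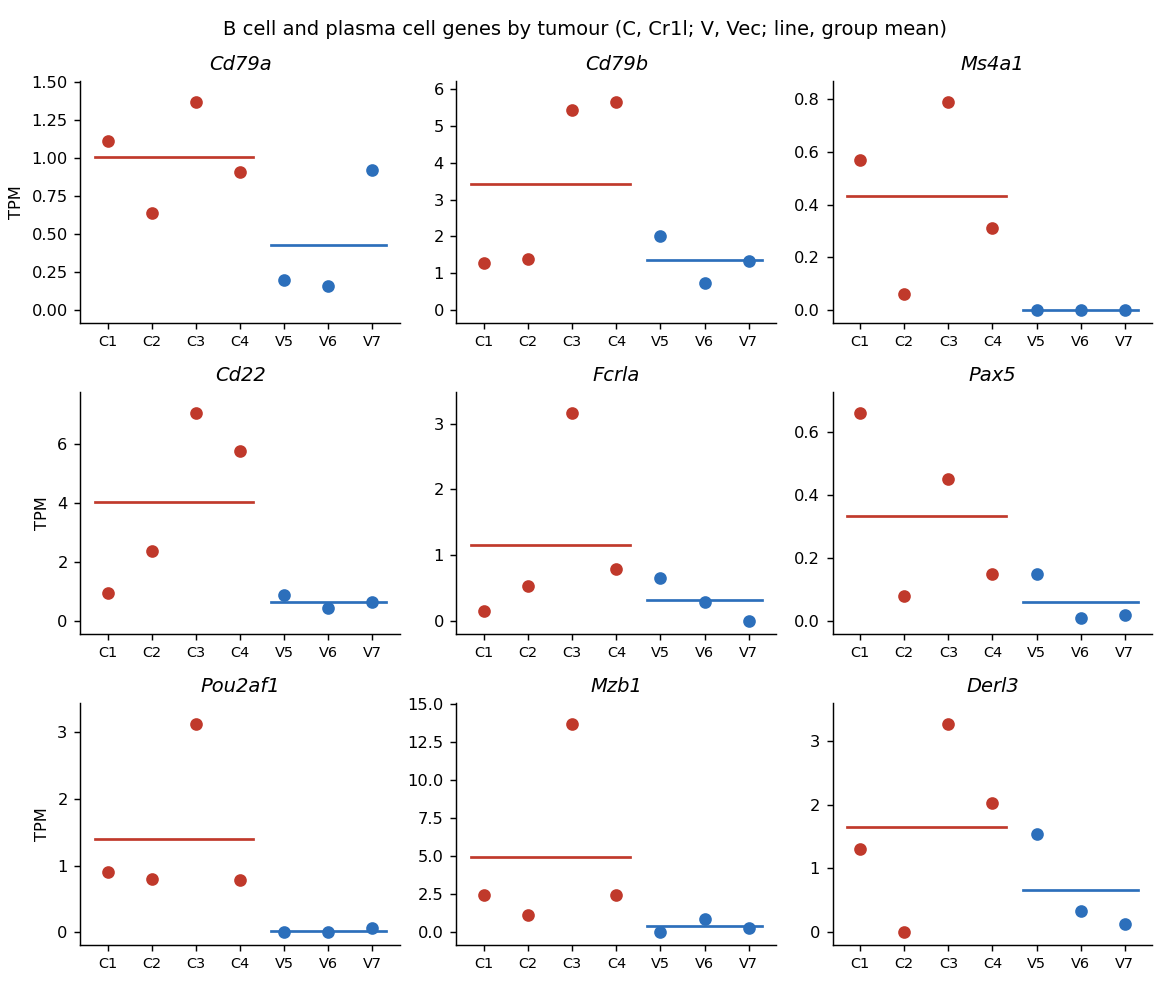
TPM of each of the 9 genes in each tumour, Cr1l tumours left and Vec tumours right in each panel, on separate vertical axes, with lines for group means. Ms4a1, Cd22, Pou2af1 and Mzb1 show no overlap, and Cr1l 3 is the highest tumour for 7 of the 9 genes.

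Among the surface genes, Cd79a and Cd79b encode the chains that carry the signal of the B cell receptor into the cell. Cd79a was at 1.11, 0.64, 1.37 and 0.91 TPM in Cr1l 1 to Cr1l 4, against 0.20, 0.16 and 0.92 TPM in Vec 5 to Vec 7. The groups overlapped through Vec 7, which exceeded Cr1l 2 and Cr1l 4. Cd79a averaged 1.01 ± 0.309 TPM in Cr1l tumours (SD, n = 4) and 0.427 ± 0.428 TPM in Vec tumours (SD, n = 3), and limma without the filter gave a log2 difference of 0.52 (SE 0.24, adjusted p = 0.470). Of the 9 genes Cd79a was the most even among Cr1l tumours among those above 0 in all 4, with its highest tumour 2.14-fold above its lowest.

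Cd79b was at 1.28, 1.38, 5.42 and 5.65 TPM in Cr1l 1 to Cr1l 4, against 2.01, 0.73 and 1.33 TPM in Vec 5 to Vec 7. Cr1l 1 and Cr1l 2 lay within the Vec range, and Cr1l 3 and Cr1l 4 lay above it. The means were 3.43 ± 2.43 TPM in Cr1l tumours and 1.36 ± 0.640 TPM in Vec tumours (SD), and the log2 difference was 0.76 (95% interval -0.36 to 1.88, limma adjusted p = 0.452). Without Cr1l 3 and Cr1l 4 the log2 difference of Cd79b was 0.02.

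Ms4a1, the surface protein CD20, was at 0.57, 0.06, 0.79 and 0.31 TPM in Cr1l 1 to Cr1l 4 and was listed at 0 in Vec 5, Vec 6 and Vec 7. The groups did not overlap, although the value of Cr1l 2 was close to 0, and the highest Cr1l tumour was 13.2-fold above the lowest. No fold against the Vec tumours is given, since all 3 are at 0. In limma without the filter Ms4a1 had an unadjusted p of 0.0242 and an adjusted p of 0.405, while its adjusted p in the authors' deposited table was 0.00409.

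Cd22, a lectin that binds sialic acid and dampens B cell receptor signals, was the best measured of the surface genes without overlap. It was at 0.97, 2.38, 7.05 and 5.77 TPM in Cr1l 1 to Cr1l 4, against 0.87, 0.46 and 0.65 TPM in Vec 5 to Vec 7. All 4 Cr1l tumours were above the highest Vec tumour, Cr1l 1 by the smallest margin. Cd22 averaged 4.04 ± 2.84 TPM in Cr1l tumours (SD, n = 4) and 0.66 ± 0.205 TPM in Vec tumours (SD, n = 3), a log2 difference of 1.40 (95% interval 0.25 to 2.56, unadjusted p = 0.0233, adjusted p = 0.270, limma). The log2 fold change of Cd22 in the authors' deposited table was 2.60 with a standard error of 0.65 and an adjusted p of 0.00408. Without Cr1l 3 and Cr1l 4 the log2 difference in limma was 0.64.

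Fcrla, an Fc receptor-like protein that stays inside B cells, was at 0.16, 0.54, 3.16 and 0.79 TPM in Cr1l 1 to Cr1l 4, against 0.66, 0.29 and 0 TPM in Vec 5 to Vec 7. The groups overlapped, with Cr1l 3 alone far above the other 6 tumours. Fcrla averaged 1.16 ± 1.36 TPM in Cr1l tumours and 0.317 ± 0.331 TPM in Vec tumours (SD). Without the filter the log2 difference was 0.57 (SE 0.44, limma adjusted p = 0.614). It was 0.19 without Cr1l 3 and 0.05 without Cr1l 3 and Cr1l 4. The pseudogene Gm2962 overlaps Fcrla on the same strand and was at 0 to 5.48 TPM, so the split of reads between the pair is uncertain.

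Of the factors, Pax5, which commits cells to the B lineage, was the lowest of the 9 genes in Vec tumours apart from Ms4a1 and Pou2af1. It was at 0.66, 0.08, 0.45 and 0.15 TPM in Cr1l 1 to Cr1l 4, against 0.15, 0.01 and 0.02 TPM in Vec 5 to Vec 7. Pax5 was highest in Cr1l 1, not in the leukocyte-rich Cr1l 3 and Cr1l 4, and the groups overlapped because Cr1l 2 lay below Vec 5. The means were 0.335 ± 0.270 TPM in Cr1l tumours and 0.06 ± 0.0781 TPM in Vec tumours (SD), and limma without the filter gave a log2 difference of 0.31 (SE 0.16, adjusted p = 0.503). The adjusted p of Pax5 in the authors' deposited table was 0.0778.

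Pou2af1, the coactivator OCA-B, was at or near 0 in the Vec tumours. It was at 0.91, 0.80, 3.12 and 0.79 TPM in Cr1l 1 to Cr1l 4, against 0, 0 and 0.06 TPM in Vec 5 to Vec 7. The groups did not overlap, and Cr1l 1, Cr1l 2 and Cr1l 4 lay close together with Cr1l 3 well above them. Pou2af1 averaged 1.41 ± 1.14 TPM in Cr1l tumours (SD, n = 4) and 0.02 ± 0.0346 TPM in Vec tumours (SD, n = 3), a log2 difference of 1.14 (95% interval 0.40 to 1.88, unadjusted p = 0.00811, adjusted p = 0.321, limma without the filter). The log2 scale with 1 TPM added understates the change of a gene this low. In the authors' deposited table the log2 fold change of Pou2af1 was 6.31 with a standard error of 1.42 and an adjusted p of 8.74e-04. The Vec tumours were at or near 0, so the size of that fold is uncertain. Without Cr1l 3 the log2 difference in limma was 0.85, and without Cr1l 3 and Cr1l 4 it was 0.86.

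Both secretory genes work in the endoplasmic reticulum. Mzb1, a chaperone that helps assemble immunoglobulin, was at 2.44, 1.13, 13.66 and 2.42 TPM in Cr1l 1 to Cr1l 4, against 0, 0.88 and 0.30 TPM in Vec 5 to Vec 7. The groups did not overlap, but Cr1l 2 and Vec 6 lay close together and Cr1l 3 was far above the other Cr1l tumours. Mzb1 averaged 4.91 ± 5.86 TPM in Cr1l tumours (SD, n = 4) and 0.393 ± 0.447 TPM in Vec tumours (SD, n = 3), a log2 difference of 1.70 (95% interval 0.22 to 3.18, unadjusted p = 0.0292, adjusted p = 0.281, limma). Without Cr1l 3 the difference was 1.12, and in the authors' deposited table Mzb1 had an adjusted p of 0.0420. A protein-coding gene annotated as SPATA24 overlaps Mzb1 on the same strand and has no values under that name. The split of reads between the pair is therefore uncertain.

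Derl3, which helps to draw misfolded proteins out of the endoplasmic reticulum for degradation, was at 1.30, 0, 3.26 and 2.03 TPM in Cr1l 1 to Cr1l 4, against 1.54, 0.34 and 0.13 TPM in Vec 5 to Vec 7. The groups overlapped, since Cr1l 2 was listed at 0 and Cr1l 1 was below Vec 5. The means were 1.65 ± 1.36 TPM in Cr1l tumours and 0.67 ± 0.761 TPM in Vec tumours (SD), with a log2 difference of 0.58 (SE 0.55, limma adjusted p = 0.610). Its adjusted p in the authors' deposited table was 0.573, the highest of the 9.

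**Figure D2:**
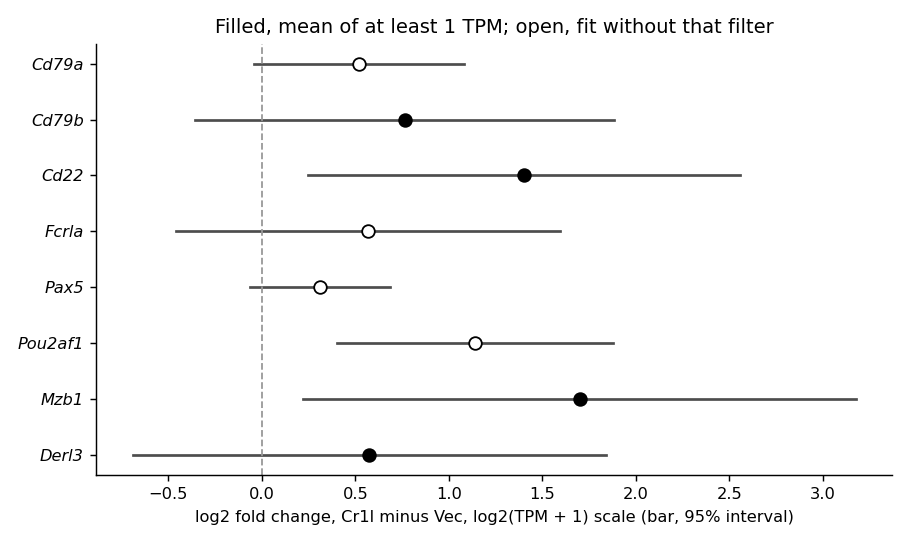
Log2 difference (Cr1l minus Vec) of 8 genes on the log2(TPM + 1) scale with 95% intervals from limma, filled points for the 4 genes above the filter and open points for those fitted without it; Ms4a1 is left out because it was at 0 in all Vec tumours. The intervals of Cd22, Mzb1 and Pou2af1 lie above 0, and no gene passed the adjusted threshold.

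The median log2 difference of the 9 genes was 0.58, or 0.67 over the 8 genes other than Ms4a1, against 0.03 over all 28233 genes and 0.05 over those tested. The surface genes summed to 4.09, 5.00, 17.79 and 13.43 TPM in Cr1l 1 to Cr1l 4, against 3.74, 1.64 and 2.90 TPM in Vec 5 to Vec 7. The secretory pair summed to 3.74, 1.13, 16.92 and 4.45 TPM in Cr1l tumours, against 1.54, 1.22 and 0.43 TPM in Vec tumours. Cr1l 4 thus had most of the surface level of Cr1l 3 but a much lower secretory level, and Cr1l 2 was within the Vec range for the secretory pair. The authors' deposited table gives mean normalized counts over the tumours of 8.75 for Derl3 and 9.50 for Ms4a1 at the low end and 111 for Cd22 at the high end, so most of these values rest on few reads.

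Promoter sequence came from RefSeq on GRCm38.p6, from 250 bases before to 50 bases after the start. It was read for 6 of the 9 genes (Fcrla, Pax5, Cd79a, Cd22, Pou2af1 and Derl3). Ms4a1 and Cd79b had no entry, and Mzb1 was left out of the search, so the counts of matches do not cover these genes. The search covered 4 short motifs on both strands: ATGCAAAT, the octamer on which Oct factors and Pou2af1 meet; CCCNNGGG, a core bound by the B cell factor Ebf1; TGACGTGG, bound by Xbp1; and CCACG, part of the endoplasmic reticulum stress element, whose reverse complement is also the end of TGACGTGG. Shown are Cd22, a surface gene without overlap, Pou2af1, the factor without overlap, and Derl3, the secretory gene with 3 matches. Capitals mark the matches.
Cd22, chr7:30878979-30879278, minus strand: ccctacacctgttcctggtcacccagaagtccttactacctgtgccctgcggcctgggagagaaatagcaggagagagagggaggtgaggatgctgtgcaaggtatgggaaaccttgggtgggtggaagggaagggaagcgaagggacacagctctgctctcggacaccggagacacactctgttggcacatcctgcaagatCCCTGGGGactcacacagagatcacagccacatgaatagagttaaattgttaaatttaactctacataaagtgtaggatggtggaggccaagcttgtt
Pou2af1, chr9:51213440-51213739, plus strand: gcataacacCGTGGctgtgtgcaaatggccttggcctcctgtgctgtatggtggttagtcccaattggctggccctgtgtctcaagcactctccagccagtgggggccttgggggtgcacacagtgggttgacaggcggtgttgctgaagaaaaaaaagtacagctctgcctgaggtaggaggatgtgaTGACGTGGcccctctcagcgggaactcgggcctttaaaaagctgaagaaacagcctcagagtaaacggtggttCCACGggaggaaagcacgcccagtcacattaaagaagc
Derl3, chr10:75893148-75893447, plus strand: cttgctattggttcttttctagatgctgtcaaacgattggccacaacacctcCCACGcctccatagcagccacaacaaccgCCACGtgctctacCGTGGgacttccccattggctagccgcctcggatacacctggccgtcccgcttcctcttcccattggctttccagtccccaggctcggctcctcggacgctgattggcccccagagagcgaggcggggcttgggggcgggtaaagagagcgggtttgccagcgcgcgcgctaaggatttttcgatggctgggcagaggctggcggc

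The Cd22 window held CCCNNGGG at 48 to 41 bases before the start, a motif found in 13.7% of 32851 promoters of the same length. The Pou2af1 window held TGACGTGG at 61 to 54 bases before the start, found in 0.676% of promoters, with a reverse match to CCACG inside it. It also held CCACG in reverse from 241 to 237 bases before the start, and forward at bases 13 to 17 after it. In the Derl3 window CCACG began 198 and 169 bases before the start, with a reverse match from 156 to 152, and 3 of the 6 windows (Cd79a, Pou2af1 and Derl3) held this motif, against 32.8% of all promoters. No window of the 6 held ATGCAAAT, which 1.74% of promoters carry. These are matches of letters, and nothing in the data measured binding at them.

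Set against leukocyte content, the difference between the groups was narrower. Per 100 TPM of Ptprc, Ms4a1 was at 4.15, 0.402, 0.595 and 0.371 in Cr1l 1 to Cr1l 4 against 0 in all 3 Vec tumours. Pou2af1 was at 6.63, 5.36, 2.35 and 0.945 in Cr1l 1 to Cr1l 4, against 0, 0 and 0.932 in Vec 5 to Vec 7. These were the 2 of 9 genes that still did not overlap, and the margin between Cr1l 4 and Vec 7 for Pou2af1 was slight. The share of all genes without overlap on this scale was not counted, so the 2 of 9 cannot be set against it. Cd22 per 100 TPM of Ptprc was at 7.07, 15.9, 5.31 and 6.90 in Cr1l tumours, against 3.96, 3.76 and 10.1 in Vec tumours, with Vec 7 above 3 of the 4 Cr1l tumours. Mzb1 on the same scale was at 17.8, 7.57, 10.3 and 2.90 in Cr1l tumours, against 0, 7.18 and 4.66 in Vec tumours, and overlapped through Cr1l 4. Cd79b per 100 TPM of Ptprc was at 4.08 to 9.33 in Cr1l tumours and at 5.96 to 20.7 in Vec tumours, so Vec 7 was above every Cr1l tumour.

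With Ptprc as a covariate in limma, the log2 difference was 0.62 for Cd22 (adjusted p = 0.423), 0.97 for Mzb1 (adjusted p = 0.476) and 0.82 for Pou2af1 (adjusted p = 0.454). In the same fit it was -0.00 for Cd79b and -0.21 for Derl3. Across the 7 tumours, which share their libraries with these genes, the correlation with Ptprc on the log2 scale was 0.937 for Cd79b and 0.916 for Cd22 but 0.417 for Cd79a and 0.380 for Pax5. These are descriptions over 7 tumours, and the part of leukocyte content in the difference between the groups was not tested.

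**Figure D3:**
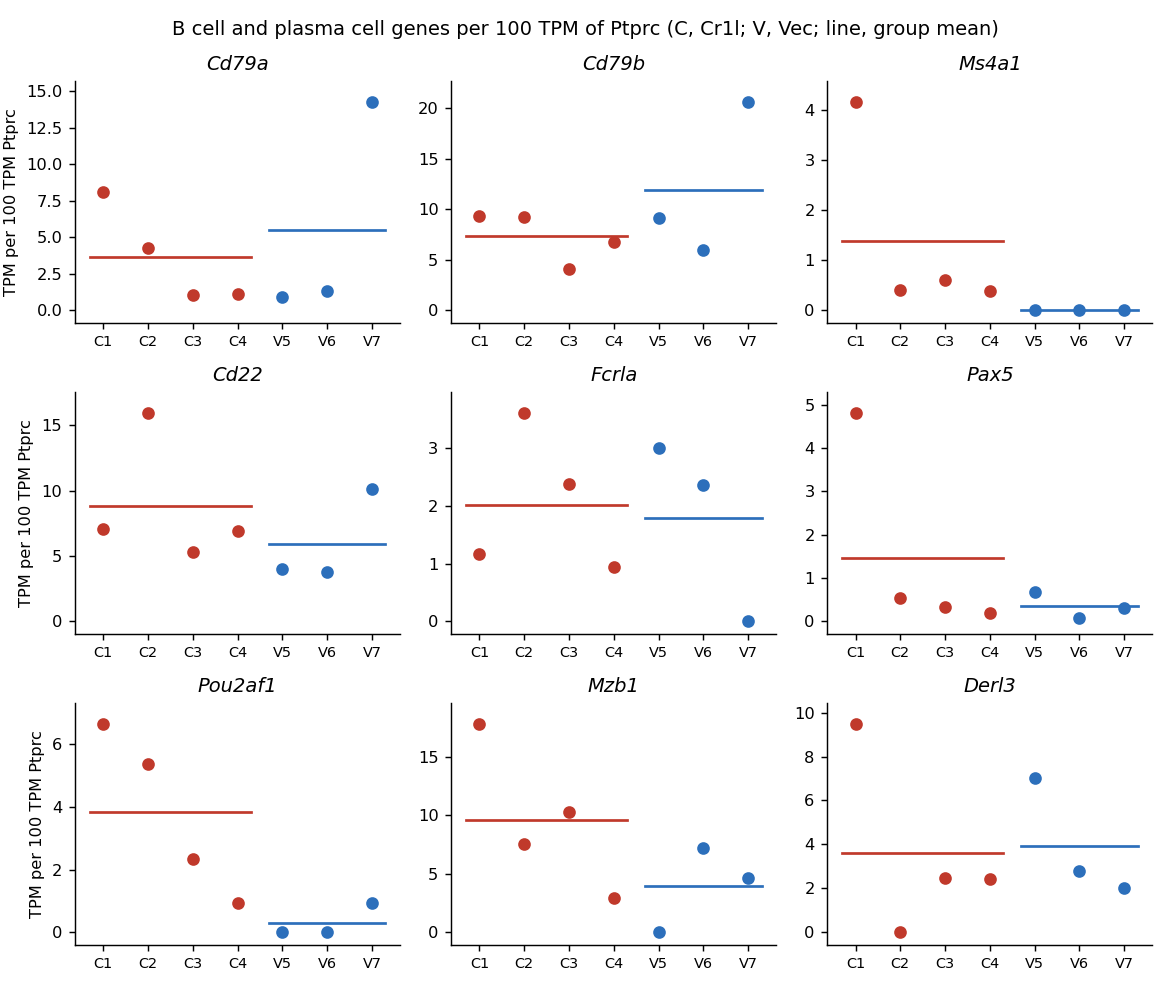
Each gene as TPM per 100 TPM of Ptprc in each tumour, Cr1l tumours left and Vec tumours right. Ms4a1 and Pou2af1 keep the groups apart on this scale, and the other 7 genes overlap.

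Immunoglobulin RNA ordered the tumours as the 9 genes did. Igkc, the kappa light chain constant gene, was at 240.03, 93.67, 730.62 and 274.31 TPM in Cr1l 1 to Cr1l 4, against 17.12, 2.47 and 5.62 TPM in Vec 5 to Vec 7, with no overlap (log2 difference 5.12, limma adjusted p = 0.0773). Per 100 TPM of Ptprc, Igkc remained apart, at 328 to 1749 in Cr1l tumours and 20.2 to 87.3 in Vec tumours. Per TPM of Cd79a, Igkc was at 216, 146, 533 and 301 in Cr1l 1 to Cr1l 4, against 85.6, 15.4 and 6.11 in Vec 5 to Vec 7. So immunoglobulin RNA was higher in Cr1l tumours relative to the receptor chain as well. In the deposited repertoire table, heavy chain clones numbered 484, 147, 1567 and 470 in Cr1l tumours, against 22, 0 and 6 in Vec tumours, and those counts are not scaled to depth. The mean log2(TPM + 1) of the 9 genes was 0.973, 0.720, 2.04 and 1.34 in Cr1l 1 to Cr1l 4, against 0.559, 0.363 and 0.395 in Vec 5 to Vec 7. Ranked from the top, the tumours ran Cr1l 3, Cr1l 4, Cr1l 1, Cr1l 2, Vec 5, Vec 7 and Vec 6 by this mean and by Igkc. Clones in the IGL column of the repertoire table numbered 734, 243, 2621 and 944 in Cr1l 1 to Cr1l 4, against 44, 6 and 16 in Vec 5 to Vec 7, the same order again. Heavy chain clones gave that order too, apart from Cr1l 1 and Cr1l 4, which were close.

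**Figure D4:**
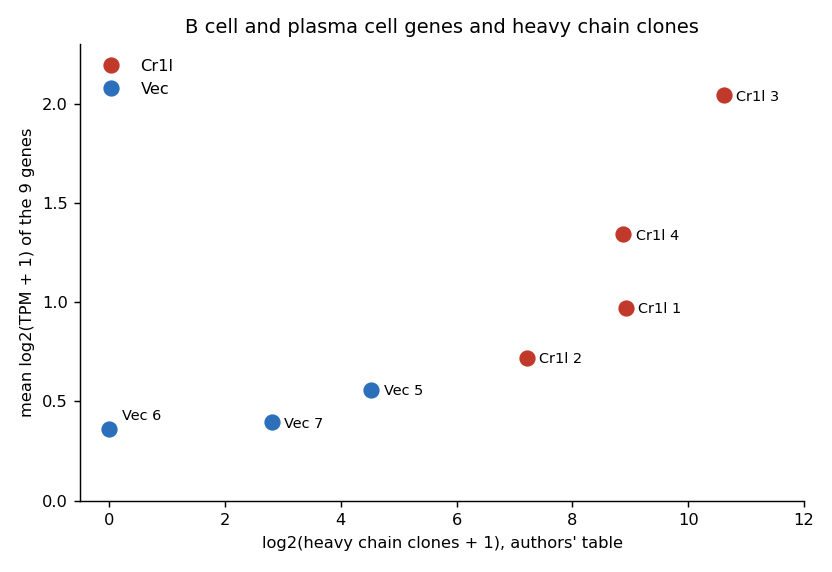
Mean log2(TPM + 1) of the 9 genes (vertical) against log2(heavy chain clones + 1) from the deposited repertoire table (horizontal), 1 point per tumour, coloured by group. Cr1l 3, with 1567 clones, is at the top, and the 3 Vec tumours, with 22 clones or fewer, are at the low end.

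Other genes of the same pathways were read from lists, and limma called none of their genes at an adjusted p of 0.05. Of 24 genes of B cell receptor signalling and the B cell surface, 22 had a positive log2 difference (median 0.56). Of these 24 genes 3 did not overlap, where 6.69% of all genes and 9.29% of those above the filter did not, and 6 were called higher in the authors' deposited table, where 4.74% of genes were. Btk, a kinase downstream of the receptor, was at 1.97, 2.68, 15.49 and 9.90 TPM in Cr1l tumours, against 2.14, 0.91 and 0.72 TPM in Vec tumours (log2 difference 1.61, limma adjusted p = 0.292). Cd40, which receives T cell help, had a difference of 1.69 (limma adjusted p = 0.306), and both genes are also used by myeloid cells.

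Of 11 B cell transcription factors 9 had a positive difference (median 0.57), with Ebf1 at 1.24 (limma adjusted p = 0.314). Of 12 plasma cell identity genes 11 were positive (median 0.50). The 1 that did not overlap, a share near the 6.69% of all genes and 9.29% of those above the filter, was Jchain, which joins secreted IgM and IgA. Jchain was at 16.08, 7.74, 66.53 and 16.46 TPM in Cr1l 1 to Cr1l 4, against 0.79, 0.27 and 0.06 TPM in Vec 5 to Vec 7 (log2 difference 3.93, limma adjusted p = 0.1004). The plasma cell regulators did not stand apart in the same way: Prdm1 was at 1.31, 1.53, 5.24 and 3.31 TPM in Cr1l tumours, against 4.13, 1.47 and 0.36 TPM in Vec tumours. Xbp1 was at 116.72 to 173.80 TPM in Cr1l tumours and 81.80 to 128.47 TPM in Vec tumours, and it is made by many secretory cells. Of 20 genes of the secretory machinery 13 were positive, with a median of 0.01, near the 0.05 of all genes tested. Of 8 germinal centre genes 6 were positive. Of 3 B cell precursor genes in the table none averaged 1 TPM. Of 7 lymph node stroma and follicular dendritic cell genes measured, 5 were positive, and Ccl21a, a chemokine of lymph node stroma, was lower in Cr1l tumours in the authors' deposited table.

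Markers of some other immune cells had mostly positive differences as well. All 10 T cell markers had a positive log2 difference (median 0.57) and summed to 18.5 to 239 TPM in Cr1l tumours and 22.3 to 48.5 TPM in Vec tumours. Of 8 macrophage markers 7 were positive (median 0.93), with sums of 350 to 3384 TPM in Cr1l tumours and 387 to 1106 TPM in Vec tumours. Plasmacytoid dendritic cells share some genes with B cells, and of their 10 markers 7 were positive (median 0.39), Siglech being at 0.64, 0.32, 4.18 and 1.94 TPM in Cr1l tumours and 0.50, 0.29 and 0.08 TPM in Vec tumours. The T cell sum was 32.15 and 18.5 TPM in Cr1l 1 and Cr1l 2, against 48.48, 46.87 and 22.27 TPM in Vec 5 to Vec 7. The macrophage sum was 349.92 and 533.75 TPM in Cr1l 1 and Cr1l 2, against 1105.87, 597.69 and 387.11 TPM in Vec 5 to Vec 7. Only Cr1l 3 and Cr1l 4 lay above the Vec range in these sums. The sums of the T cell and macrophage lists thus overlapped between the groups, and the part of these cells in the values of the 9 genes was not tested.

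**Figure D5:**
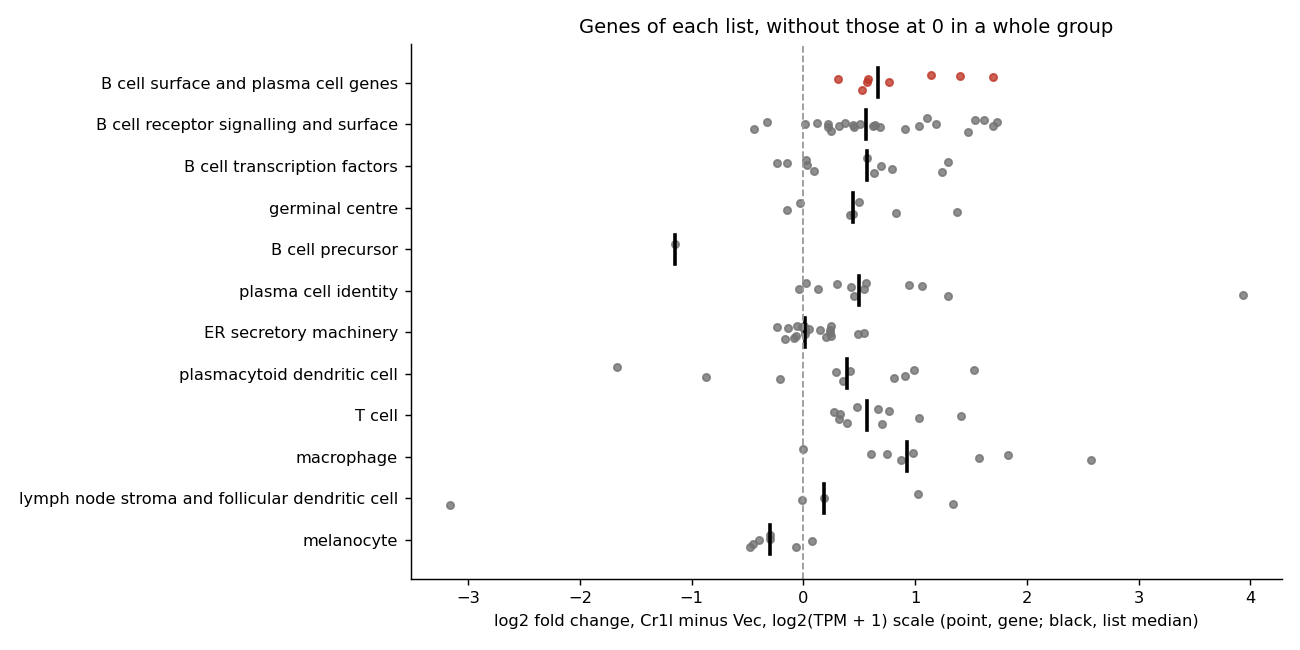
Log2 difference (Cr1l minus Vec, log2(TPM + 1)) of each gene of each list, genes at 0 in a whole group and the red cell list left out, with the median as a line. The lists of receptor signalling, B cell factors, plasma cell identity, T cells and macrophages have medians above 0, the secretory machinery lies near 0, and the 1 precursor gene shown and the melanocyte list lie below it.

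By likeness of profile, the gene closest to the mean of the 9 on the log2 scale was Il15, a cytokine that sustains lymphocytes, with a Pearson r of 0.996 over 7 tumours and 0.991 over the 6 without Cr1l 3. Il15 was at 5.34, 3.54, 16.67 and 8.83 TPM in Cr1l 1 to Cr1l 4, against 3.40, 2.35 and 2.67 TPM in Vec 5 to Vec 7. The groups did not overlap, and the order of the Cr1l tumours was that of the 9 genes' mean. Both follow in large part from choosing Il15 for its likeness to that mean. The next were Rasgrp2, Ccl24, Dio3, Chst7, Creb3l3, Ceacam1 and Gimap8, with r of 0.987 to 0.990 over the same 7 tumours. Il15 and these genes had the highest r over few tumours among genes averaging at least 1 TPM. The 9 genes, immunoglobulin genes and some other name groups were left out of that search. A high r, with or without Cr1l 3, and a profile like that of the 9 are thus part of how they were chosen.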

How the data were processed

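RNA from 7 tumours was compared, 4 Cr1l against 3 Vec, with groups and tumour numbers taken from the labels. The tumours are separate samples and their numbers pair nothing. Vec 6 and Vec 7 have an extra number in their titles, which the labels do not explain. Per the labels' protocols, poly-T beads selected messenger RNA and the libraries kept no strand, so reads of Ms4a1, Cd22 and Pax5 cannot be told apart from those of antisense genes that overlap them. The authors used RSEM, DESeq2 and the mm39 build, per the submitters' processing notes, which name no versions. The deposited expression table holds log2(TPM + 1) per gene and tumour, which was turned back to TPM. The authors' deposited table of their comparison holds for each gene a signal (normalized counts averaged over tumours), a log2 fold change, its standard error and p-values, per the file headers. Its numerator is not named, and since Cr1l is positive in it, positive was read as higher in Cr1l tumours. Of its 28369 IDs, 27182 were matched to symbols. The deposited repertoire table holds clone numbers, called with MiXCR per the file name, which are not scaled to depth.

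The main test was limma 3.58.1 in R 4.3.3 with a trend, on log2(TPM + 1) of genes averaging at least 1 TPM, with Benjamini-Hochberg adjustment over all genes tested, two-sided. Members under that filter were read from the same fit without it. The fit was tested on simulated data. Alternatives were another scaling, a pseudocount of 0.1, no filter, no trend, tumour weights, Ptprc as a covariate, and leaving tumours out. Promoters came from RefSeq (GRCm38.p6), and overlapping genes from the GENCODE M21 annotation. The genes and lists were chosen with earlier results of these data known. Beside the 9 genes, the text names at most 4 genes per list, those with the smallest unadjusted p, a few regulators and immunoglobulin genes, and the 8 genes most like the mean of the 9. The lists cover B cell receptor signalling, B cell factors, germinal centre, precursor, plasma cell, secretory, plasmacytoid dendritic, T cell, macrophage, lymph node stroma, melanocyte and red cell genes.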

Additional observations from a re-analysis of the deposited data

Results flagged for a closer look

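For each of the 9 genes the 4 Cr1l tumours were examined for a tumour far from the others, by setting the gap between an extreme tumour and its nearest neighbour against the whole range. Past Dixon's 95% critical value for 4 samples were Pou2af1, at 0.948, and Mzb1, at 0.895. In both genes the tumour set apart was Cr1l 3, with 3.12 TPM of Pou2af1 and 13.66 TPM of Mzb1. Chance flags about 1 in 20 groups where values are independent and normally spread, and 9 groups were examined. The 9 genes share the same 4 tumours and TPM need not be normally spread, so that rate need not hold here. Cr1l 3 also had the most Ptprc, at 132.88 TPM, and the part of that in these values was not tested.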

How the results depend on the processing

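The fit without Vec 6 and Vec 7 leaves only Vec 5 in its group, so only its log2 differences are used for the 9 genes. None of the 9 genes passed limma's adjusted p of 0.05 in the other alternatives. In the 10 alternatives where overlap was counted, 4 or 5 of the 9 had groups that did not overlap. The share of all genes without overlap was not counted there. Leaving tumours out can only remove overlap, for any gene, so a count that holds or rises is no sign of strength. The log2 difference of Cd22 ran from 0.62 to 2.13 (limma adjusted p 0.174 to 0.511). That of Mzb1 ran from 0.97 to 3.25 (limma adjusted p 0.225 to 0.489) and that of Pou2af1 from 0.82 to 3.44 (limma adjusted p 0.143 to 0.631). These p ranges leave out the fit without Vec 6 and Vec 7. The median of the 9 ran from 0.35 to 1.43, the highest with a pseudocount of 0.1, and Ms4a1 is included with its fitted value. With Ptprc as a covariate the log2 differences of Cd79b, at -0.00405, of Fcrla, at -0.11, and of Derl3, at -0.21, were below 0, and that of Derl3 was -0.12 without Vec 6 and Vec 7; the cause was not tested. The number of genes called over the whole table was 2, against 10 with median-of-ratios scaling, 6 with a pseudocount of 0.1, 0 with no filter, 13 with no trend, 14 with tumour weights and 26 with Ptprc as a covariate. It ran from 0 to 9 when tumours were left out, 8 of these being without Vec 7 and 9 without Cr1l 3 and Cr1l 4, an alternative chosen after seeing the data. Derl3 without Cr1l 3, and Mzb1 and Derl3 without Cr1l 3 and Cr1l 4, were under the filter and gave no value. No paired analysis was possible because the groups share no tumour numbers.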

Other observations

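A gene of the precursor list was chosen after its values were seen. Vpreb3, which early B cells express, was at 0, 0.25, 0.62 and 0.16 TPM in Cr1l 1 to Cr1l 4, against 1.46, 1.43 and 2.48 TPM in Vec 5 to Vec 7, lower in all Cr1l tumours and thus opposite in direction to the 9 genes (log2 difference -1.15, limma adjusted p = 0.200 without the filter). It averaged under 1 TPM over the 7 tumours and did not enter the main fit.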
